A study of Sus scrofa with 10 samples.

Results

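The complement components and regulators described here are 9 pig genes: C3, CFI, CFB, CFD, C1R, C1S, C7, SERPING1 and COLEC11. They are 9 of the 27376 rows of the count table, matched by gene name, and each was found. These 9 were selected on the measured values of the same libraries, so their levels and differences are given as a description, with no p-value. RNA was counted in 10 libraries: 4 of GF grafts, 4 of FO grafts and 2 of control testis. GF grafts grew from porcine germ cells together with testicular fibroblasts, and FO grafts from testicular fibroblasts only. Both kinds of cells were primary cells, injected with Matrigel at high concentration into the dorsal skin of a mouse labelled "SKID", and the tissue was taken 6 months later. Control testis is pig testis tissue titled 5D, a code left unexplained, and its age is therefore unknown here. The control labels carry the same cell type and growth fields as GF grafts, and the titles were used to separate them. Column names give FO libraries the letter F, and that match is an inference. The design asks what the germ cells add to the formation of testis-like tissue. Counts were made on pig genes, so RNA of the mouse host may be missed or partly counted. From which species the reads came was not tested.

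Complement is a cascade of mostly secreted proteins that marks cells and debris for removal and can perforate membranes. Recognition proteins such as C1q and the collectins bind a surface and switch on serine proteases. These proteases lead to the cleavage of C3, the step on which all routes of activation meet. An amplification loop of factor B and factor D cleaves more C3, and C5 to C9 then assemble into the membrane attack complex. Soluble inhibitors and membrane proteins hold the cascade back on the body's own cells. The liver makes most of the circulating proteins, and fibroblasts, macrophages and epithelia make several of them locally.

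The total count was 2915534 to 4917325 in GF, 4033509 to 4887878 in FO, and 5844944 and 7013911 in control testis. Levels below are counts per 1000000 counts scaled with TMM factors (CPM), given as mean ± SD (n = 4 GF, 4 FO, 2 control), and differences are log2 fold changes ± SE from edgeR's quasi-likelihood fit. A gene was called when its Benjamini-Hochberg adjusted p was under 0.05 over all genes tested. A floor of 3 counts corresponds to 0.452 to 1.03 CPM in a single library, and intervals on counts cover counting error only. The labels do not say that libraries came from separate animals, so p-values measure the spread between these libraries, which may be technical. GF 3 and GF 4 had the lowest totals. GF 3 and FO 1 held skeletal muscle markers at a summed 146 and 553 CPM, where no other library passed 25.8 CPM. In bulk tissue, fewer cells of a type and less RNA per cell cannot be told apart.

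Across GF and FO grafts, 7 of the 8 members that could be tested were lower in GF grafts, and no member was higher. Of the 13782 genes tested, 13.0% were called lower in GF and 17.6% higher. The members were chosen on this contrast, so nothing is read from their count of 7 called lower. Their median log2 fold change was -2.90, beside -0.02 over all genes tested. The GF and FO libraries did not overlap for any of these 7 genes, and they overlapped for CFD, the other member tested. How many of all genes were free of overlap was not counted, so nothing is read from this either. C7 had too few counts for this comparison. CFB and COLEC11 passed the filter on low counts through their FO libraries alone.

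**Figure D1:**
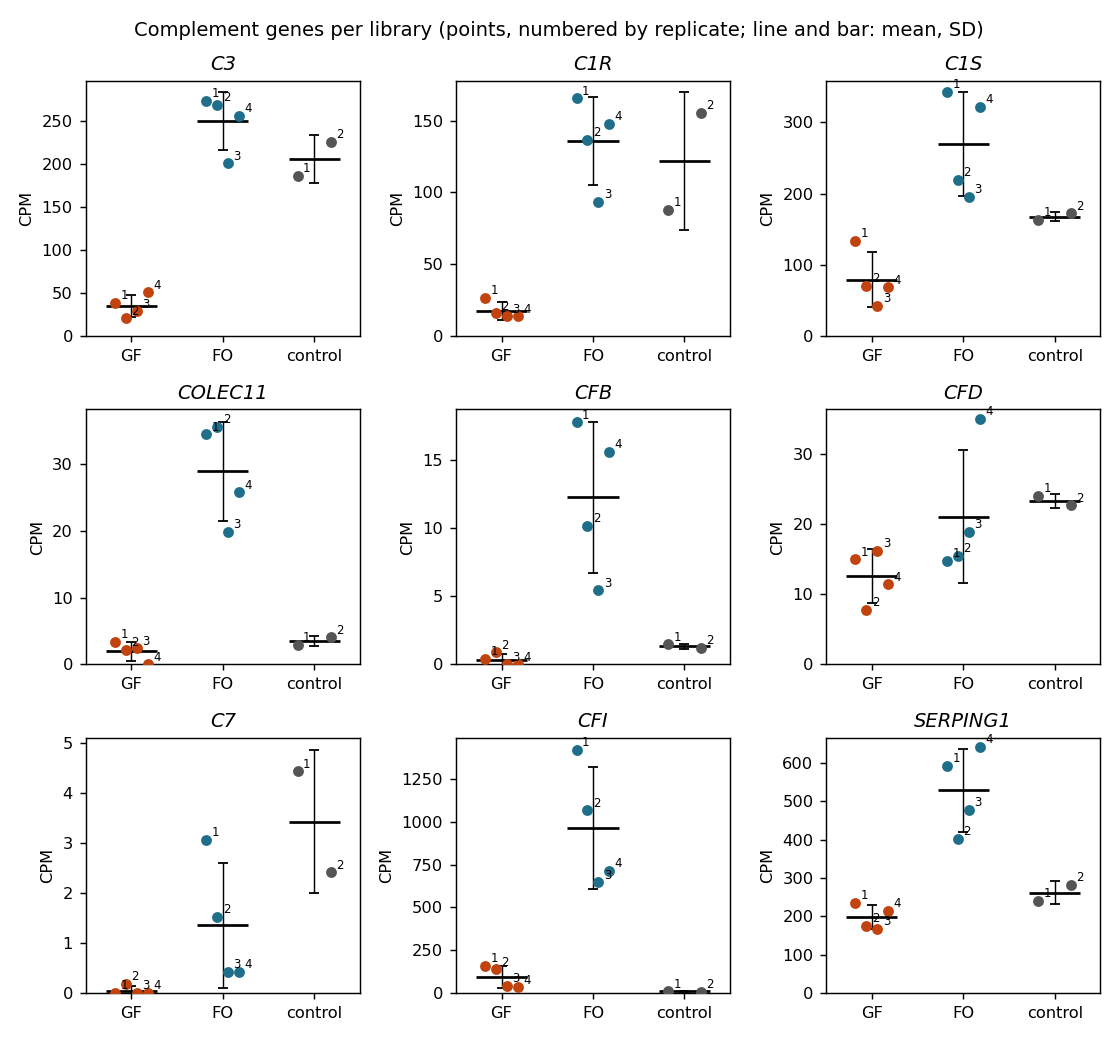
Level of each of the 9 complement genes in CPM (linear axes starting at 0, one panel a gene) in GF grafts, FO grafts and control testis. Points are libraries numbered by replicate, the horizontal line is the group mean and the bar its SD. C3 and C1R are low in GF grafts alone, CFB and COLEC11 are high in FO grafts alone, and CFI is highest in FO grafts and above control testis in GF grafts too.

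The recognition lectin among the members is COLEC11, a collectin that binds sugars on cell surfaces and starts the lectin pathway. On Sscrofa11.1 its gene lies on chromosome 3 at 131226941 to 131254555. Its level was 3.42, 2.16, 2.41 and 0 CPM in GF 1 to GF 4, 34.5, 35.6, 19.9 and 25.8 CPM in FO 1 to FO 4, and 2.96 and 4.07 CPM in the control libraries. All FO libraries stood above every other library, and the GF range included a library without a count and overlapped the control range. The means were 2.00 ± 1.44 CPM in GF, 29.0 ± 7.47 CPM in FO and 3.52 ± 0.785 CPM in control testis. The log2 difference was -3.78 ± 0.59 for GF against FO, -0.75 ± 0.66 for GF against control testis and 3.03 ± 0.71 for FO against control testis.

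C1R and C1S encode the paired serine proteases of the C1 complex, in which C1r activates C1s and C1s cleaves C4 and C2. The genes neighbour each other on chromosome 5, C1R at 63644097 to 63655149 and C1S at 63670309 to 63681466. C1R had 26.7, 15.9, 13.8 and 13.8 CPM in GF 1 to GF 4, 166, 136, 93.4 and 148 CPM in FO 1 to FO 4, and 88.0 and 155.6 CPM in the controls. Every GF library lay below every FO and control library, and the FO and control ranges overlapped. For C1S the levels were 133, 70.6, 42.4 and 68.3 CPM in GF 1 to GF 4, 343, 219, 196 and 322 CPM in FO 1 to FO 4, and 163 and 172 CPM in the controls. C1S therefore fell into 3 tiers without overlap, with FO highest and GF lowest, and GF 1 came closest to the control libraries. The log2 difference between GF and FO was -2.94 ± 0.30 for C1R and -1.78 ± 0.34 for C1S. Set against control testis, GF had -2.78 ± 0.34 for C1R and -1.09 ± 0.37 for C1S. The same values for FO were 0.16 ± 0.34 for C1R and 0.68 ± 0.39 for C1S, neither of them called.

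C3 is the central component, whose larger fragment coats surfaces and whose smaller fragment is a chemoattractant. The gene lies on chromosome 2 at 72431470 to 72471622. It stood at 38.3, 20.5, 28.6 and 50.7 CPM in GF 1 to GF 4, at 273, 268, 200.2 and 255.5 CPM in FO 1 to FO 4, and at 186 and 225.5 CPM in the control libraries. The highest GF library, GF 4, lay far below the lowest of the FO and control libraries, and the FO and control ranges overlapped. Means were 34.5 ± 13.0 CPM in GF, 249 ± 33.5 CPM in FO and 205.6 ± 28.2 CPM in control testis. C3 was 7.21-fold lower in GF than in FO, a log2 difference of -2.85 ± 0.30. It was 5.98-fold lower in GF than in control testis (-2.58 ± 0.31), while FO differed from control testis by 0.28 ± 0.32.

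The alternative pathway members are CFB, which supplies the protease of the C3 convertase, and CFD, the protease that activates factor B. CFB lies on chromosome 7 at 24034077 to 24040523, starting 35 bases after the end of C2 and ending 2 bases before NELFE, and whether counting used strand is not given. CFB levels were 0.428, 0.901, 0 and 0 CPM in GF 1 to GF 4, 17.8, 10.2, 5.45 and 15.7 CPM in FO 1 to FO 4, and 1.48 and 1.21 CPM in the controls. The GF libraries held 2, 5, 0 and 0 reads, and all were below both controls, which were below every FO library. The log2 difference was -4.84 ± 0.79 for GF against FO and 3.17 ± 0.88 for FO against control testis. For GF against control testis it was -1.68 ± 0.91 and was not called. Without GF 2, where most GF reads lay, CFB was 62.4-fold lower in GF than in FO (95% counting interval 17.1 to 519), and without GF 3 and GF 4 the log2 difference was -4.12.

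CFD did not follow CFB. Its gene, on chromosome 2 at 77509792 to 77511988, lies within the span of MED16, and its counts are uncertain for that reason. The level was 15.0, 7.75, 16.2 and 11.4 CPM in GF 1 to GF 4, 14.8, 15.4, 18.8 and 34.9 CPM in FO 1 to FO 4, and 24.0 and 22.6 CPM in control testis. GF and FO overlapped, FO 4 was the highest library of all, and every GF library lay below both controls. Log2 differences were -0.74 ± 0.39 for GF against FO, -0.90 ± 0.42 for GF against control testis and -0.15 ± 0.42 for FO against control testis, none of them called.

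C7 is a terminal component that anchors the growing attack complex in a membrane. It lies on chromosome 16 at 25846860 to 25902707. The GF libraries held 0, 1, 0 and 0 reads, the FO libraries 11, 7, 2 and 2 reads and the control libraries 27 and 16 reads. C7 was thus close to the counting limit in all grafts and near absent in GF, where 3 libraries gave no read. Scaled and pooled per group, C7 was 19.9-fold lower in GF than in FO (95% counting interval 3.22 to 822) and 54.2-fold lower in GF than in control testis (9.22 to 2190). Without GF 2, which held the one read, these became at least 4.34-fold and at least 11.8-fold lower against a floor of 3 counts over the GF group. FO against control testis gave a log2 difference of -1.35 ± 0.99, with overlapping ranges.

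CFI and SERPING1 encode soluble inhibitors. Factor I is a serine protease that inactivates C3b and C4b with the help of cofactors, and SERPING1 encodes the C1 inhibitor, which blocks C1r, C1s and the lectin pathway proteases. CFI lies on chromosome 8 at 112430824 to 112470844 and SERPING1 on chromosome 2 at 13324160 to 13338826. CFI stood at 158, 139, 41.3 and 33.8 CPM in GF 1 to GF 4, at 1420, 1068, 647 and 713 CPM in FO 1 to FO 4, and at 9.87 and 7.69 CPM in control testis. It was the one member that stood above control testis in every graft of both kinds. FO exceeded GF by a wide margin, and GF 3 and GF 4 were the lowest grafts. The log2 difference was -3.37 ± 0.50 for GF against FO, 3.41 ± 0.66 for GF against control testis and 6.77 ± 0.78, or 109-fold, for FO against control testis. With GF 3 and GF 4 left out, the log2 difference was -2.70 for GF against FO and 4.07 for GF against control testis.

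SERPING1 showed the smallest difference between grafts among the 7 genes called lower. Its levels were 236, 175, 168 and 214 CPM in GF 1 to GF 4, 593, 402, 478 and 642 CPM in FO 1 to FO 4, and 240.4 and 283 CPM in the controls. Every FO library lay above every control library, and every GF library lay below them by a smaller distance. Log2 differences were -1.41 ± 0.23 for GF against FO, -0.40 ± 0.25 for GF against control testis (not called) and 1.01 ± 0.27 for FO against control testis.

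**Figure D2:**
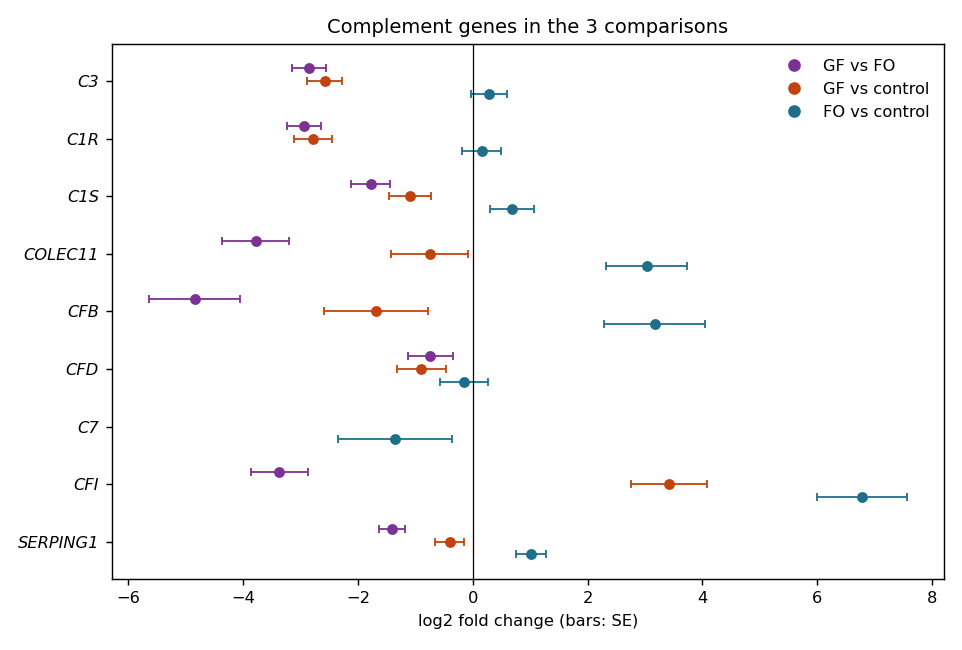
Log2 fold change (horizontal axis, bars: SE) of each complement gene in GF against FO, GF against control testis and FO against control testis. C7 is drawn for FO against control testis only, since the GF libraries held 1 read of it in all. CFI is the one gene to the right of 0 in both comparisons with control testis by more than its SE, and C3 and C1R lie near 0 in FO against control testis.

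Against control testis the members split. In GF, 4 of the 9 were called lower (C3, C1R, C1S and C7), CFI was called higher, and CFB, CFD, SERPING1 and COLEC11 did not pass. Among all 15877 genes tested in this comparison 11.8% were called lower and 14.0% higher, and the median log2 fold change was -1.09 over the members and 0.03 over all genes. In FO, 4 of the 9 were called higher (CFI, CFB, SERPING1 and COLEC11) and 5 did not pass, beside 8.12% of all genes called higher and 10.6% called lower. The FO median was 0.68 over the members and -0.04 over all genes. The members were also chosen on these contrasts, and both comparisons share the 2 control libraries, as both share a graft group with the comparison of GF and FO. In both, C7 passed the filter on low counts through control testis alone and CFB through FO alone. Nothing is read from these counts of called members. CFI was the one member called on the same side of control testis in both kinds of graft.

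Single libraries decided several of these calls. For GF against control testis, the CFI call was lost without control 2 (log2 difference 3.22) and the C7 call without control 1. The C1S call was lost without control 1 (-1.15), control 2 (-1.07), GF 2 (-1.06), GF 3 (-0.91) or GF 4 (-1.02). For FO against control testis, the SERPING1 and COLEC11 calls were lost without either control, with log2 differences of 0.89 and 1.12 for SERPING1 and 2.81 and 3.26 for COLEC11 without control 1 and control 2. The CFB call was lost without control 1 (3.30), control 2 (3.01), FO 1 (2.94) or FO 4 (3.03).

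Within groups the members varied together only in part. After the group mean was taken from each log2 CPM value, 27 of the 36 member pairs had a Pearson r above 0 over the 10 libraries, with a median of 0.27, beside 0.01 over all pairs of the 15877 tested genes. These correlations are descriptive, and libraries share depth and scaling. CFI and CFB gave the highest r, 0.787, followed by C1R and C1S with 0.784, C1S and SERPING1 with 0.769, and CFI and COLEC11 with 0.686. C3 had an r of 0.501 with SERPING1, 0.349 with C1S and 0.342 with C1R, against -0.246 with CFB, -0.301 with CFI and -0.46 with COLEC11. The lowest r was -0.646, between CFD and C7. GF 1 was above its group mean for every member but C7, and FO 3 was at or below its group mean for all 9.

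**Figure D3:**
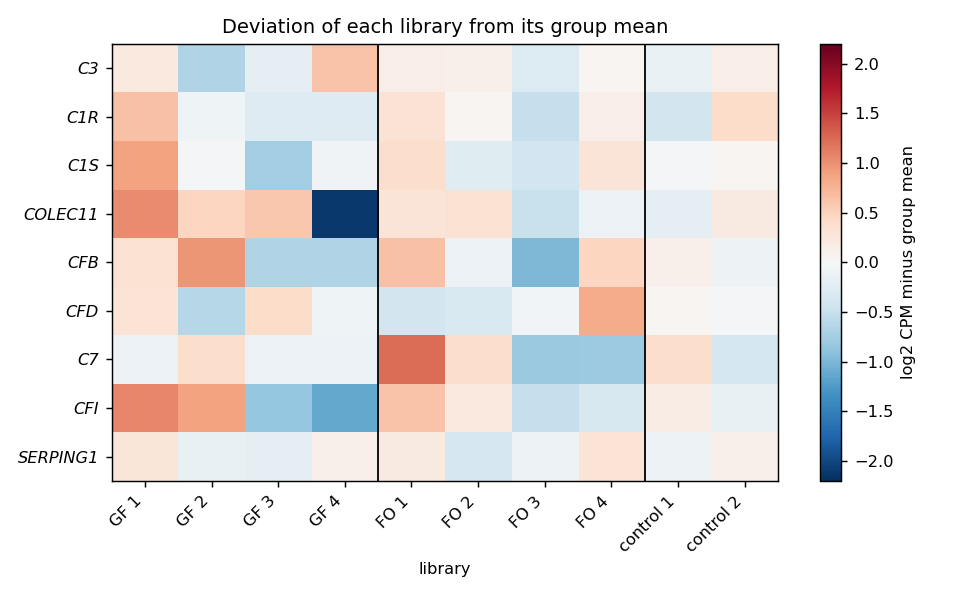
Deviation of each library's log2 CPM (prior count 2) from its group mean for the 9 complement genes, with GF, FO and control libraries in columns. Red marks a library above its group mean and blue one below it. GF 1 is above the mean for most genes, GF 3 and GF 4 are low for CFI, and FO 3 is below the mean in nearly every row.

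The genes whose log2 CPM pattern was most like that of the members over the 10 libraries were sought among 7381 tested genes with an average log2 CPM of at least 4. For C3 these were RTP4 (r = 0.983), NCAM1 (0.979), NLGN1 (0.977), FAM204A (0.973) and CDK14 (0.973). RTP4 averaged 16.9 CPM in GF, 100.5 CPM in FO and 80.6 CPM in control testis, the same low GF level beside similar FO and control levels. For CFI they were MGAT4C (0.99), ITGBL1 (0.984), NPC2 (0.983), STOX2 (0.98) and PLEKHG1 (0.979). NPC2 averaged 504 CPM in GF, 2531 CPM in FO and 166 CPM in control testis, which repeats the order of CFI. For the mean of the members' z-scores they were TANC1 (0.986), ANGPTL2 (0.985), MLLT1 (0.982), KBTBD11 (0.982) and COL5A2 (0.981).

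The remaining genes of the pathway were taken from a list of 47, of which 43 were in the table and C4B, FCN3, CFHR5 and CR2 were not analysed here. In GF against FO, 20 of these were tested: 8 fell, 2 rose and 10 did not pass (edgeR's quasi-likelihood test, Benjamini-Hochberg adjusted), with a median log2 fold change of -1.64. Among all genes 13.0% were called lower and 17.6% higher. Of the 20, the genes that rose were C4A and CLU. C1QB, C1QC, C2, MASP2, CPN2 and THBD passed the filter on low counts through their FO libraries alone. Of all 10 genes that passed in this way, these 6 fell and C5, C9, C5AR1 and CD93 did not pass the test. Such a gene enters the test only with FO libraries over the filter's minimum, so nothing is read from that share. Of the 10 genes that passed the filter otherwise, 2 fell (CD46 and CD59), 2 rose and 6 did not pass.

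Among the 8 recognition genes and early proteases tested in GF against FO, C1QB, C1QC, C2 and MASP2 fell, all of them genes that passed the filter through FO alone. C1QB, a chain of the C1q recognition molecule, had 0.428, 0.901, 0.344 and 0 CPM in GF 1 to GF 4 and 15.6, 2.39, 3.56 and 17.1 CPM in FO 1 to FO 4 (log2 -4.29 ± 0.90, adjusted p = 0.00428). FO itself varied here, with FO 1 and FO 4 several times above FO 2 and FO 3. C1QC differed by -3.34 ± 0.81 (adjusted p = 0.00901), and C2, the protease of the classical C3 convertase, by -2.94 ± 0.86 (adjusted p = 0.0228). MASP2, the protease that collectins such as COLEC11 recruit, had a mean of 1.10 ± 1.39 CPM in GF grafts and of 10.01 ± 2.72 CPM in FO grafts, and fell by 3.00 ± 0.83 (adjusted p = 0.0171). C4A, the classical pathway component cleaved by C1s, was 301, 210.4, 341 and 314 CPM in GF 1 to GF 4 against 113, 196, 219 and 97.9 CPM in FO 1 to FO 4. It rose by 0.90 ± 0.29 (adjusted p = 0.0352), although the highest FO library exceeded the lowest GF library. C4A is thus the classical component that ran against C1R, C1S and C2. COLEC12 (-1.71 ± 0.64, adjusted p = 0.0615) and COLEC10 (0.91 ± 0.51, adjusted p = 0.201) did not pass.

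Of the 7 regulators tested in GF against FO, CD46, CD59, CPN2 and THBD fell and CLU rose. CPN2 and THBD passed the filter through FO alone. CD46, a membrane cofactor for factor I, had 75.5 ± 28.4 CPM in GF grafts, against 207.8 ± 34.4 CPM in FO grafts (-1.46 ± 0.30, adjusted p = 0.00359). CD59, which blocks the attack complex on the cell surface, had 39.4 ± 23.2 CPM in GF grafts, against 180 ± 40.1 CPM in FO grafts (-2.19 ± 0.37, adjusted p = 0.00137). Neither gene overlapped between the graft groups. CPN2, a subunit of the carboxypeptidase that trims C3a and C5a, fell by 2.93 ± 0.58 (adjusted p = 0.00301), and THBD, or thrombomodulin, by 2.27 ± 0.74 (adjusted p = 0.0358). CLU, a secreted chaperone that inhibits the attack complex and is abundant in Sertoli cells, had 28060 ± 15610 CPM in GF grafts, against 5725 ± 1682 CPM in FO grafts (2.31 ± 0.40, adjusted p = 0.00159). Sertoli cell markers summed to 903 to 1424 CPM in GF, 453.5 to 712 CPM in FO and 1176 to 1280 CPM in control testis, and their part in the level of CLU was not tested. Without GF 3 and GF 4 the CLU difference was 1.35. CD55, which dissociates convertases, did not pass between grafts (-0.78 ± 0.32, adjusted p = 0.0831).

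In the terminal pathway 3 of 6 listed genes were tested, and 0 passed edgeR's test in any of the comparisons. C9 passed only under alternative fits, given below. At an unadjusted p under 0.05 there was 1 lower gene in GF against FO and 0 with control testis, and DESeq2 called 0 in each. C5 averaged 2.31 ± 1.98 CPM in GF, 5.69 ± 3.55 CPM in FO and 3.15 ± 2.53 CPM in control testis, a range in which 3 counts are a large part of the level. Of the receptors, C5AR1 and CD93 were tested between grafts and neither passed edgeR's test, with 1 at an unadjusted p under 0.05 and 1 by DESeq2.

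Several of these graft calls rested on 1 library. The number called was 6 without FO 1 and 5 without FO 4, beside 10 with all libraries. C1QC lost its call without FO 4 (adjusted p = 0.0536), MASP2 without FO 1 (0.0516) or FO 2 (0.0588), and C2 without FO 1, FO 2, FO 4 or GF 2 (0.0516 to 0.0739). C4A lost it without FO 1 (0.107), FO 4 (0.0917), GF 1 (0.0502), GF 3 (0.0756) or GF 4 (0.0592). THBD lost it without any 1 of the FO libraries, GF 2 or GF 3 (0.0624 to 0.0919), and also with DESeq2 (0.0720), total counts (0.0637), no filter (0.0629) and a fold threshold of 1.5 (0.0688). C4A lost it with that fold threshold (0.176) and without GF 3 and GF 4 (0.101). Without both FO 1 and GF 3, C1QC (0.0507), C2 (0.0844), MASP2 (0.0619), C4A (0.194) and THBD (0.167) did not pass. COLEC12 (0.0365) and C5AR1 (0.0439) passed with DESeq2. Without GF 1 the log2 difference was -4.29 for C2 and -3.30 for THBD, and C9 (0.0272) and C5AR1 (0.0481) passed. Without GF 2 it was -4.00 for MASP2 and -3.80 for CPN2, and C1QB was 32.6-fold lower in GF (95% counting interval 10.9 to 160). COLEC12 passed without GF 3 (0.0473). With both GF 3 and GF 4 left out, the log2 difference was -2.15 for C2, -2.16 for MASP2 and -1.47 for THBD. CD46, CD59 and CLU kept their calls without each library in turn.

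**Figure D4:**
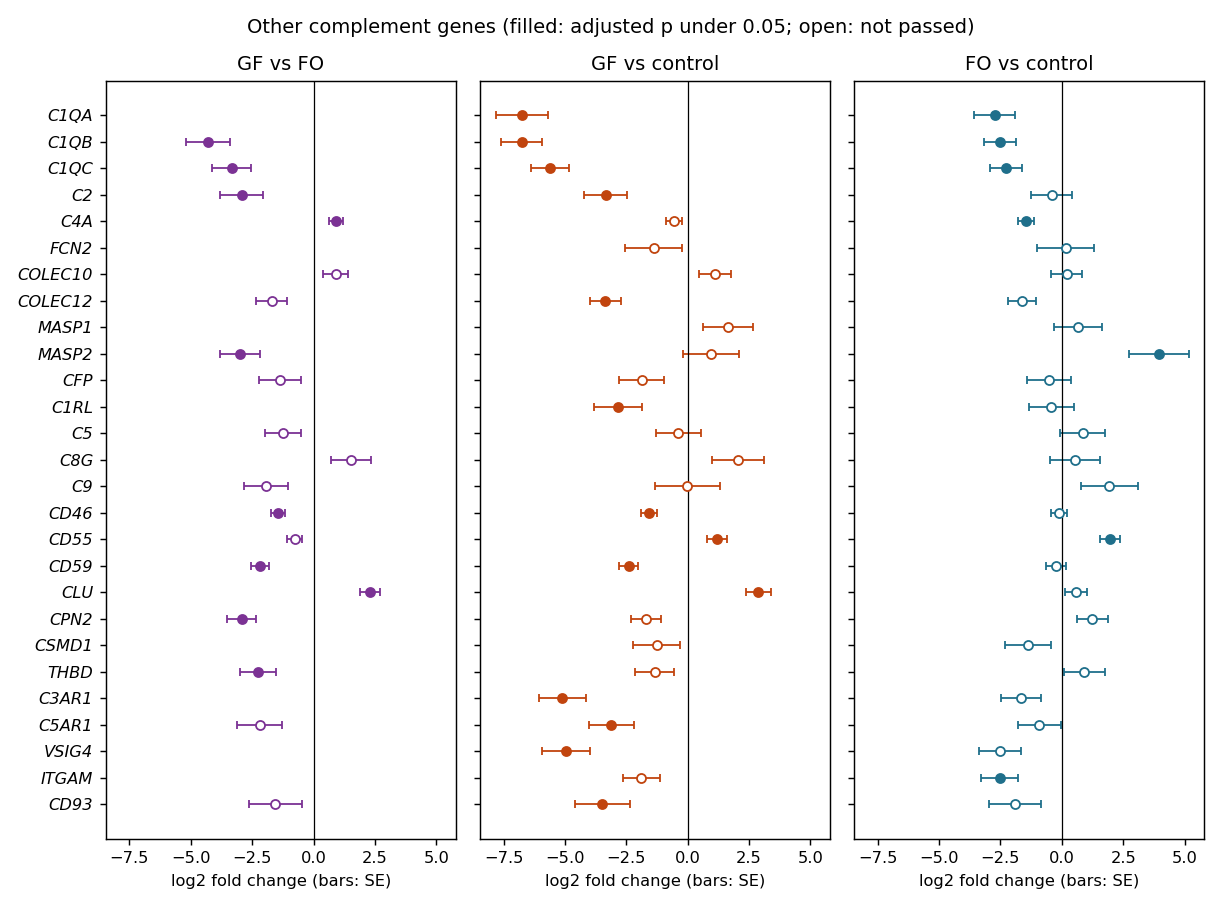
Log2 fold change (horizontal axis, bars: SE) of other tested complement genes that had more than 3 counts in each group, in GF against FO (left), GF against control testis (middle) and FO against control testis (right). Filled points passed an adjusted p of 0.05 and open points did not. C1QA, C1QB, C1QC and the receptors C3AR1 and VSIG4 lie far to the left of 0 in GF against control testis, and CLU to the right.

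Against control testis, 16 of the 32 other complement genes tested fell in GF, 2 rose and 14 did not pass, with a median log2 fold change of -1.88. Among all genes 11.8% were called lower and 14.0% higher. Of the 16, 12 had passed the filter through FO or control libraries without GF. They could enter the test only with libraries over the filter's minimum there, so nothing is read from their share. Of the 14 genes that passed otherwise, 4 fell (CD46, CD59, C5AR1 and CD93), 2 rose and 8 did not pass. All 3 chains of C1q fell: C1QA had 0.681 ± 0.789 CPM in GF grafts, against 91.3 ± 1.74 CPM in control testis (-6.76 ± 1.05, adjusted p = 6.55e-04), C1QB differed by -6.77 ± 0.83 (1.39e-04) and C1QC by -5.61 ± 0.76 (2.77e-04). The receptor genes C3AR1, VSIG4, ITGAX and ITGB2 passed the filter without GF, so nothing is read from the share of receptors called. Of the 7 receptor genes tested 6 fell, beside 11.8% of all genes called lower. They were C3AR1, the C3a receptor (-5.12 ± 0.96, adjusted p = 0.00207), C5AR1, a C5a receptor (-3.11 ± 0.93, 0.0257), the macrophage receptor VSIG4 (-4.97 ± 0.98, 0.00285), CD93 (-3.49 ± 1.12, 0.0349), and the integrin genes ITGAX and ITGB2. ITGB2 had 2 reads in all GF libraries and was 110-fold lower than in control testis (95% counting interval 30.1 to 918), and ITGAX with 3 reads was 16.0-fold lower (5.07 to 80.9). CR1, a receptor and cofactor, had no read in GF and 359 in control testis, at least 151-fold lower in GF against a floor of 3 counts over the group. FCN1, a recognition lectin of monocytes, had no read in either graft group and 79 in control testis, at least 33.2-fold lower in GF and 36.7-fold lower in FO.

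Falls outside these groups in GF against control testis were C2 (-3.34 ± 0.88, adjusted p = 0.0142), COLEC12 (-3.35 ± 0.62, 0.00192), C1RL (-2.83 ± 0.97, 0.0471), CD46 (-1.58 ± 0.32, 0.00356) and CD59 (-2.41 ± 0.40, 9.08e-04). The genes that rose were CLU (2.87 ± 0.51, adjusted p = 0.00147) and CD55 (1.20 ± 0.40, 0.0405). CD46 and CD59 were therefore lower in GF than in both other groups, as were C3, C1R and C1S among the members. The C1S call against control testis was lost under several alternatives. C4A did not pass in GF against control testis (-0.56 ± 0.32, adjusted p = 0.219).

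In FO against control testis 7 of the 32 fell, 2 rose and 23 did not pass, with a median log2 fold change of -0.47. Among all genes 10.6% were called lower and 8.12% higher. C1QA (-2.74 ± 0.85, adjusted p = 0.0378), C1QB (-2.51 ± 0.65, 0.0161) and C1QC (-2.28 ± 0.65, 0.0259) fell here too, as did CR1 (-3.80 ± 0.80, 0.00818), ITGAM (-2.52 ± 0.75, 0.0320) and C4A (-1.46 ± 0.32, 0.00653). C4A averaged 292 ± 56.7 CPM in GF, 156.5 ± 60.1 CPM in FO and 430 ± 26.6 CPM in control testis, so its low level was in FO, while C1R and C1S were low in GF. MASP2 rose (3.96 ± 1.20, adjusted p = 0.0348), with 9.74, 13.0, 6.49 and 10.8 CPM in FO 1 to FO 4 and 0.164 and 1.05 CPM in the controls. CD55 rose as well (1.97 ± 0.41, 0.00519), with 73.8, 78.5, 32.4 and 50.4 CPM in GF grafts, 121, 126, 96.5 and 60.1 CPM in FO and 29.4 and 21.9 CPM in control testis. Of the called genes here, MASP2 passed the filter on low counts through FO alone and FCN1 through control testis alone. COLEC11 and MASP2, lectin and protease of one pathway, shared a high FO level, and GF and control levels that overlapped. The listed COLEC10 and MASP1 did not share it, with means of 5.09 and 3.37 CPM in GF and 2.73 and 1.73 CPM in FO.

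With only 2 control libraries, leaving out 1 of them ended many of these calls. In GF against control testis 11 of the other complement genes were called without either control. C2, FCN1, C1RL, CD55, C5AR1, ITGAX and CD93 lost their calls without control 1 (adjusted p = 0.0563 to 0.168) and without control 2 (0.0884 to 0.311). C1RL (0.0528) and CD93 (0.0649) also lost them without GF 3, and CD55 without GF 1 (0.0667) or GF 2 (0.0789). C1RL lost its call with total counts (0.0635) and no filter (0.0508), CD93 with no filter (0.151), and C1RL (0.0742), CD93 (0.0538) and CD55 (0.111) with a fold threshold of 1.5. With the fit restricted to GF and control libraries, C2 (0.0929), C1RL (0.152), C5AR1 (0.0735), CD55 (0.0966) and ITGAX (0.0682) lost theirs, and so did C1RL (0.0755) and CD93 (0.0750) without FO 1 and GF 3. Without GF 1 the log2 difference was -4.70 for C2 and -3.90 for C5AR1, ITGAX was 33.9-fold lower (5.73 to 1375), and THBD passed (0.0245). Without GF 2 it was -7.34 for C1QA and -3.48 for C1RL, while C1QB was 193-fold (65.8 to 939), C3AR1 65.4-fold (22.1 to 319), VSIG4 70.0-fold (23.7 to 342) and ITGB2 72.1-fold lower (19.7 to 600.0). Without GF 2 the bound was 98.6-fold for CR1 and 21.7-fold for FCN1, and CPN2 passed (0.00719). ITGB2 was 181-fold lower without GF 3 (32.0 to 7176), and CFP without GF 4 (0.0308) and ITGAM without GF 3 (0.0199) passed. With both GF 3 and GF 4 left out, C5AR1 (0.0697) and CD93 (0.202) lost their calls, and the log2 difference was 1.93 for CLU, -2.57 for C2, -6.05 for C1QA, -4.39 for C3AR1 and -4.21 for VSIG4.

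In FO against control testis 2 of the other complement genes, C4A and CD55, were called without control 1. Without control 2, 0 of 34 tested were called by edgeR, and 9 had an unadjusted p under 0.05. The adjusted p was then 0.0739 for C4A and 0.105 for CD55, and for MASP2 it was 0.276 without control 1 and 0.121 without control 2. MASP2 was 60.8-fold higher in FO without control 2 (95% counting interval 10.8 to 2415), and 3.20 on the log2 scale without control 1. C1QA (0.0634 to 0.0843) and C1QC (0.0673 to 0.0758) lost their calls without FO 1, FO 2 or FO 3, and without FO 4 their log2 differences were -3.73 and -3.09. MASP2 (0.0561 to 0.0874) and ITGAM (0.0565 to 0.0870) lost theirs without any 1 FO library, and VSIG4 (0.0301) and CD93 (0.0252) passed without FO 4. C1QA also lost its call with DESeq2 (0.164) and no filter (0.118), and C1QA (0.0661), C1QC (0.0538), ITGAM (0.0594) and MASP2 (0.0535) lost theirs with a fold threshold of 1.5. With the fit restricted to FO and control libraries C1QA (0.126) and C1QC (0.0587) did not pass. That fit called 14 other complement genes, beside 9, and 5 of them rose, beside 2. It added falls of COLEC12 (0.0032), VSIG4 (0.00963), ITGAX (0.0230) and ITGB2 (0.0214), and rises of C9 (0.00881), CPN2 (0.00489) and THBD (0.0043). Leaving out GF 3 and GF 4 called 17, without C1QA (0.0856). Without FO 1 and GF 3, C1QA (0.0727) and C1QC (0.0729) did not pass. The number called was 5 without FO 1, without FO 2 and without FO 3, beside 9 with all libraries.

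Of 30 listed inflammatory and interferon signalling genes 29 were in the table and 22 were tested. In GF against FO 14 fell and 8 did not pass, beside 13.0% of all genes called lower and 17.6% called higher. Of the 14, 6 had passed the filter on low counts through FO alone, IL1R1 and IL6 among them, and nothing is read from their share. Of the 13 genes that passed otherwise 8 fell and 5 did not pass. NFKB1 (0.88 ± 0.34, adjusted p = 0.0706) and NFKBIA (0.57 ± 0.21, adjusted p = 0.0562), of the NF-kappa-B pathway, had positive differences and did not pass. IL6R, the interleukin 6 receptor, had 34.5 ± 4.29 CPM in GF grafts, against 98.9 ± 19.2 CPM in FO grafts (-1.52 ± 0.23, adjusted p = 8.31e-04). The tumour necrosis factor receptor TNFRSF1A (-1.88 ± 0.37, adjusted p = 0.00286) and the interleukin 1 receptor IL1R1 (-3.16 ± 0.74, 0.00783) fell as well, IL1R1 by 4.05 without GF 1 and by 2.32 without GF 3 and GF 4. In GF against control testis 9 of the 22 fell, beside 11.8% of all genes, among them IRF9 (-2.66 ± 0.41, adjusted p = 5.75e-04), TNFRSF1B (-1.83 ± 0.31, 0.00117) and STAT2 (-1.38 ± 0.30, 0.00482), the last not without control 2 (0.0657). In FO against control testis 2 rose and 20 did not pass, beside 8.12% of all genes called higher. Of the 2, IL6 passed the filter on low counts through FO alone, so nothing is read from that count. IL6R rose by 1.19 ± 0.27 (adjusted p = 0.00865), but not without control 1 (0.101) or control 2 (0.122). IL6 rose by 3.43 ± 1.06 (adjusted p = 0.0373), but not without either control or without FO 1, FO 2 or FO 4 (0.0701 to 0.249), with a fold threshold of 1.5 (0.0590), or without FO 1 and GF 3 (0.0611).

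Acute phase and host defence proteins, several of which the liver secretes together with complement, showed the high FO level of CFI, CFB and COLEC11 in part. Of 10 tested in GF against FO, 4 fell (ORM1, HP, CP and RARRES2), PTX3 rose and 5 did not pass. Among all genes 13.0% were called lower and 17.6% higher. CP and ORM1 passed the filter on low counts through FO alone. Of the 5 genes that passed otherwise, 2 fell, 1 rose and 2 did not pass. ORM1, an orosomucoid, averaged 0.908 ± 1.14 CPM in GF, 29.2 ± 10.7 CPM in FO and 0.850 ± 0.504 CPM in control testis, with -4.83 ± 0.67 in GF against FO (adjusted p = 5.02e-04) and -6.03 without GF 1. Haptoglobin, HP, averaged 7.03 ± 2.56 CPM in GF, 44.5 ± 23.9 CPM in FO and 2.61 ± 0.494 CPM in control testis (-2.67 ± 0.43 in GF against FO, adjusted p = 0.00108). Ceruloplasmin, CP, fell by 3.34 ± 0.64 (adjusted p = 0.00252), and the pentraxin PTX3, a soluble pattern receptor, rose by 1.69 ± 0.42 (0.00993). In FO against control testis 5 of 11 rose, among them HP (4.08 ± 0.60, adjusted p = 4.59e-04), RARRES2 (2.37 ± 0.37, 7.96e-04), CP (5.54 ± 0.95, 0.00143) and ORM1 (5.04 ± 0.89, 0.00168). Among all genes 8.12% were called higher there, and ORM1 passed the filter through FO alone. Without control 2, where control 1 held 3 reads, ORM1 was 59.3-fold higher in FO (95% counting interval 20.2 to 289). In GF against control testis RARRES2 rose (1.43 ± 0.36, adjusted p = 0.0106), but not without control 1 (0.0860) or control 2 (0.130), and 10 did not pass.

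Summed markers of cell types that make complement proteins differed between the groups. Summed macrophage and myeloid markers, 12 of 12 in the table, ranged from 78.7 to 104 CPM in GF, 196.5 to 344 CPM in FO and 639.7 to 654 CPM in control testis. The mean levels of the 3 C1q chains had the same order. Of these markers, 5 of 8 tested fell in GF against FO, 11 of 12 in GF against control testis and 6 of 12 in FO against control testis. Among all genes 13.0%, 11.8% and 10.6% were called lower. CD14, AIF1 and FCER1G passed the filter on low counts through FO alone in GF against FO. In GF against control testis CD14, CD163, CD68, CSF1R, AIF1, FCER1G and LYZ passed it without GF, so nothing is read from these shares. Fibroblast and stromal markers ranged from 1793 to 3042 CPM in GF, 4619 to 7008 CPM in FO and 4857 to 4930 CPM in control testis, with 6 of 12 lower and 1 higher in GF against FO, 7 lower in GF against control testis, and 3 lower and 1 higher in FO against control testis. GF 1 held the highest fibroblast sum of its group and the highest C1R, C1S, SERPING1, CFI and COLEC11. C3 was highest in GF 4, whose fibroblast sum was the lowest, CFD in GF 3, and CFB and C7 in GF 2. Simple epithelial and mesothelial markers ranged from 337 to 512 CPM in GF, 717.5 to 983 CPM in FO and 267 to 273 CPM in control testis, the order also seen for CFI. Of these, 3 of 5 tested fell in GF against FO, 3 of 7 rose and 1 fell in GF against control testis, and 4 of 7 rose in FO against control testis, and UPK3B was at 0 in the controls. Within GF grafts the epithelial and mesothelial sum was highest in GF 4 (512 CPM), where CFI was lowest (33.8 CPM). Within FO grafts both were highest in FO 1. The part of these markers in the complement levels was not tested.

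**Figure D5:**
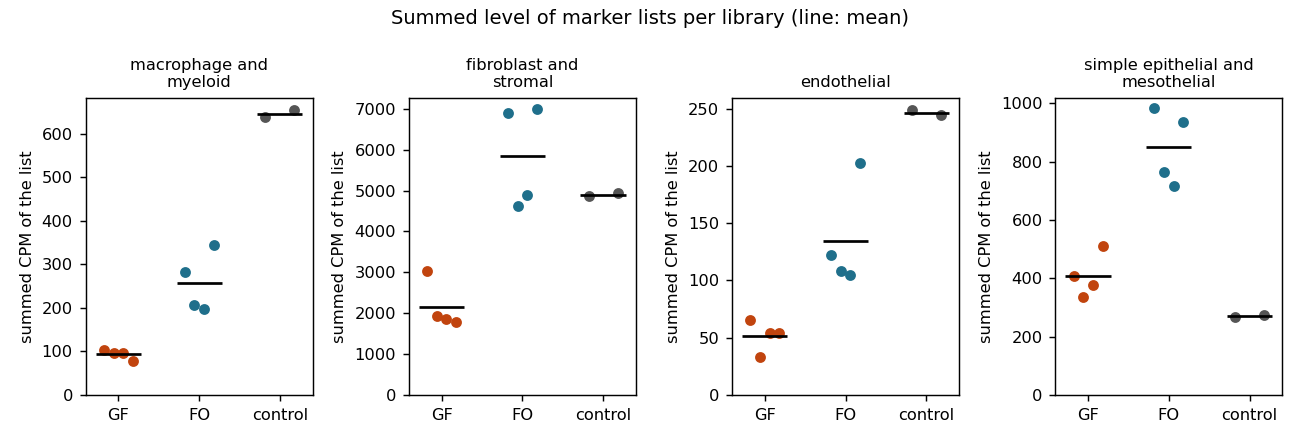
Summed CPM of 4 marker lists per library (points, with the group mean as a line; each panel has its own linear axis from 0) in GF grafts, FO grafts and control testis. Macrophage and endothelial sums are lowest in GF and highest in control testis, fibroblast sums are lowest in GF, and epithelial and mesothelial sums are highest in FO.

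Other lists set the remaining context. Among all genes 13.0% were called lower and 17.6% higher in GF against FO. The shares were 11.8% and 14.0% in GF against control testis, and 10.6% and 8.12% in FO against control testis. Endothelial markers ranged from 33.5 to 65.2 CPM in GF, 105 to 203 CPM in FO and 245 to 249 CPM in control testis, with CLDN5 at 0 in GF. Of these, 1 of 6 tested fell in GF against FO, 4 of 7 fell in GF against control testis, and 2 of 7 fell and 1 rose in FO against control testis. Hepatocyte markers ranged from 273 to 1078 CPM in GF, 569 to 1120 CPM in FO and 525 to 643 CPM in control testis, nearly all of it APOA1, with AHSG and SERPINC1 at 0 in both grafts and TTR at 0 in FO and control testis. Between 1 and 2 hepatocyte markers were tested, 0 passed edgeR's test, 0 had an unadjusted p under 0.05 and DESeq2 called 0. Adipocyte markers, relevant to CFD, ranged from 31.4 to 125 CPM in GF, 28.3 to 71.7 CPM in FO and 36.2 to 56.8 CPM in control testis, with PLIN4 and CIDEC at 0 in GF, LEP at 0 in FO, and ADIPOQ, PLIN1 and PLIN4 at 0 in control testis. LEP rose in GF against FO (1 of 4 tested), LEP and LPL in GF against control testis (2 of 5), and LIPE fell in FO against control testis (1 of 5). Germ cell markers checked the graft labels: 8 of 8 rose in GF against FO, 6 of 8 rose in GF against control testis and 4 of 8 fell in FO against control testis, and their sums were 622 to 2959 CPM in GF, 69.0 to 115 CPM in FO and 152 to 169 CPM in control testis. In GF against FO, LEP and the germ cell markers other than ZBTB16 passed the filter on low counts through GF alone. The endothelial marker that fell there, EMCN, passed it through FO alone. Of the Sertoli markers 3 of 7 rose and 1 fell in GF against FO, 1 of 8 rose and 2 fell in GF against control testis, and 2 of 8 fell in FO against control testis. Leydig cell markers summed to 1427 to 3090 CPM in GF, 489 to 3742 CPM in FO and 14060 to 16670 CPM in control testis, with 1 of 7 higher and 1 lower in GF against FO, 5 of 7 lower in GF and 6 of 7 lower in FO against control testis. Of the skeletal muscle markers 1 was tested in GF against FO and 6 with control testis, and edgeR's test and DESeq2 called 0 in each, with 1 lower in GF and 1 higher in FO against control testis at an unadjusted p under 0.05.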

How the data were processed

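Per the labels, RNA was isolated with Trizol and libraries were made with the QuantSeq 3' kit, which counts reads at transcript ends. The authors deposited raw read counts, whole numbers in 1 column for each library and 1 row for each gene name. Per the submitters' processing notes the build is Sscrofa11.1 and DESeq2 1.42.0 is named, with no role stated. Which aligner and counter were run, and whether strand was used, is not given in the sources used here. Total counts were 2915534 to 7013911 per library, so levels near the floor of 3 counts are imprecise.

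Low counts were filtered with filterByExpr (minimum count 10) and scaled with TMM factors. The test was edgeR's robust quasi-likelihood F test (edgeR 4.0.16 and limma 3.58.1 in R 4.3.3) with Benjamini-Hochberg adjustment over all genes tested. GF against FO used the 8 graft libraries, and comparisons with control testis used all 10 in 1 fit. Where a group held 1 to 3 counts of a gene, the text gives a ratio and its exact 95% counting interval, and where it held none, a bound. Libraries of a group differed beyond sampling noise and each was counted once.

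Members and lists were chosen with earlier results of these data known, and so were the lists of other complement genes, signalling genes, acute phase genes and cell type markers. Every member is named, other complement genes are named where called or where their role needs it, and up to 4 called genes with the lowest p are named for each signalling or acute phase list and comparison. Some genes of these lists are counted but not reported here by name. Gene positions and names come from the RefSeq table of Sscrofa11.1. Alternatives were the DESeq2 1.42.0 Wald test, RLE size factors, total counts, no filter, a fold threshold of 1.5, a replicate block, other libraries sharing the fit, leaving out each library in turn, and leaving out GF 3 with GF 4 or FO 1 with GF 3. All 10 libraries enter the reported values. The labels name no sequencing batch.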

Additional observations from a re-analysis of the deposited data

Results flagged for a closer look

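Levels of the members and the other tested complement genes were looked at in GF and in FO, in 79 groups of 4 libraries whose values were not all equal. Of these, 4 held a library far from the other 3 by Dixon's criterion, and chance gives about 1 in 20. C1R stood at 26.7 CPM in GF 1, above 13.8 to 15.9 CPM in the other GF libraries. MASP1 stood at 0.628 CPM in FO 3, below 1.95 to 2.23 CPM in the other FO libraries. CPN2 stood at 3.42 CPM in GF 2, above 0.689 to 1.07 CPM in the other GF libraries. CD93 stood at 65.6 CPM in FO 4, above 2.61 to 10.5 CPM in the other FO libraries.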

How the results depend on the processing

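Members were chosen on these contrasts, so their counts under the alternatives show nothing of stability: 7 were called between GF and FO, and 8 in the fit of all 10 libraries. The fit of all 10 libraries called 17 other complement genes in GF against FO, beside 10. A fit of the compared groups alone called 14 in FO against control testis, beside 9. It called 2201 genes in GF against control testis, beside 4091, and 6600 in FO against control testis, beside 2972. A fold threshold of 1.5 called 2456, 2658 and 1833 genes in GF against FO, GF against control testis and FO against control testis, and 5 other complement genes in the last. Leaving out FO 1 and GF 3 left 2312 genes and 5 other complement genes in GF against FO, beside 4205 and 10. Leaving out GF 3 and GF 4 gave 6510 genes and 17 other complement genes in FO against control testis. Leaving out 1 library gave 2902 to 4842 genes in GF against FO, 1141 to 4729 in GF against control testis and 796 to 2263 in FO against control testis. Other complement genes called then ranged from 5 to 13, 11 to 19 and 0 to 9, and members from 7 to 7, 3 to 5 and 1 to 4. The cause was not tested. Total counts in place of TMM factors moved the median log2 fold change of all genes to 0.13, 0.12 and -0.09, and the called genes of GF against FO to 2790 higher and 1249 lower, beside 2419 and 1786. Same-numbered GF and FO libraries deviated with r of 0.055 to 0.218, and other-numbered ones with r of -0.148 to 0.108. These overlapping ranges do not decide whether the numbers pair libraries. The replicate block called 4335, 3282 and 3219 genes, and 11, 16 and 10 other complement genes. With it CD55 passed in GF against FO (adjusted p = 0.038), while C1RL (0.11) and ITGAX (0.0534) in GF against control testis and ITGAM (0.0718) in FO against control testis did not. DESeq2 called 11, 18 and 10 other complement genes. Of 1998 alternative values for single genes, 118 lost a call that was made for a gene other than a member, 41 gained one, 30 moved by more than 1 SD in a member or changed sign in a gene not called, and 0 called values changed sign. Genes below a few CPM, such as C7 and CFB in GF, are limited by depth.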
